A study of Mus musculus with 9 samples.

Results

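The comparison described here is that of c-kit+ with c-kit- cells of WT leukemia, made with 6 of the 9 libraries of the series. Its members were chosen by sample label, as 3 libraries of AML-WT-c-kit+ cells and 3 of AML-WT-c-kit- cells. The leukemia is a mouse model in which c-kit+ bone marrow cells of C57BL/6J mice were transduced with a retrovirus carrying MLL-AF9 and GFP. The genotype label of all 6 libraries is control-GFP overexpression, so the sorted populations share strain, oncogene and reporter and differ in the sort on c-kit. The recipients were 6 to 8 weeks old and had not been irradiated. On day 18 after the transfer of leukemia cells their bone marrow was harvested and sorted, and the total RNA was sequenced. MLL-AF9 is driven from a retrovirus, which inserts at random, and the labels give neither the number of starting leukemias nor whether the 3 libraries of a group came from separate mice. The p-values therefore measure the spread between these libraries, which may be technical in part.

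c-kit, the product of Kit, is the receptor of stem cell factor and is carried by hematopoietic stem and progenitor cells. In mouse leukemia driven by MLL-AF9, cells able to pass on the disease are commonly sought in the c-kit+ fraction, which resembles granulocyte-monocyte progenitors. These progenitors give rise to neutrophils, whose granule proteins are made in a fixed order from promyelocyte to mature cell, and to monocytes, which depend on the receptor of macrophage colony-stimulating factor. The question the comparison answers is which genes differ between the cells of WT leukemia that carry c-kit and those that do not.

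Kit was read first, as a check of the labels. It had 0.52, 1.19 and 3.03 TPM in libraries 1, 2 and 3 of AML-WT-c-kit- cells and 50.7, 58.5 and 51.3 TPM in those of AML-WT-c-kit+ cells. TPM is a transcript level corrected for the length of the gene and for the size of the library. The groups did not overlap (log2 fold change of c-kit+ over c-kit- 4.52, standard error 0.33, limma adjusted p = 0.000105). By exact permutation, two-sided, p was 0.1, below which 3 libraries set against 3 cannot go. Kit lies at chr5:75574916-75656722 of GRCm38, on the forward strand. Since the cells were sorted on its product, this difference is a check and no finding.

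Across the genes tested, Pearson's r was 0.971 to 0.98 within AML-WT-c-kit- libraries, 0.977 to 0.98 within AML-WT-c-kit+ libraries and 0.896 to 0.92 between the groups. Library 3 of AML-WT-c-kit- cells stood nearest to the c-kit+ group in Kit and in several abundant granule genes, so the results that rest on it are also given without it. The 10 genes of highest mean level in AML-WT-c-kit+ cells were S100a9, mt-Atp8, S100a8, Ngp, Gm28661, Camp, mt-Co1, Chil3, Eef1a1 and Gm10925, and those in AML-WT-c-kit- cells were mt-Atp8, Gm28661, Lyz2, Eef1a1, mt-Co1, Gm28437, S100a9, Gm10925, Tmsb4x and Rpl13a. The top 10 of a library held 13.1% to 17.28% of a c-kit+ library and 9.88% to 10.26% of a c-kit- library. As the total of TPM is fixed, less of it was left for other genes in c-kit+ cells. The myeloid genes Spi1, Cebpa, Csf3r, Itgam, Mpo, Elane, Hoxa9 and Meis1, which fit the labelled leukemia, were expressed in all 6 libraries. Over all genes the log2 fold change had a median of −0.08, and centring or rescaling the libraries moved it up by 0.13 to 0.16. In sorted bulk cells, fewer cells of a type and less RNA per cell cannot be told apart.

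The test covered 13261 of 55536 genes, those that reached 1 TPM in 3 or more of the 6 libraries. A gene was called where its log2 fold change on log2(TPM + 1) was at least 1 in size and its limma adjusted p was under 0.05. Adding 1 makes the change of weakly expressed genes look smaller than it was. By this rule 1916 genes (14.4%) differed, 641 (4.83%) higher and 1275 (9.61%) lower in AML-WT-c-kit+ cells. An adjusted p under 0.05 without regard to size was met by 5519 genes (41.6%), with 1860 (14.0%) higher and 3659 (27.6%) lower. The 3 and 3 libraries did not overlap in 7213 genes (54.4%), among them 1907 of the 1916 called. With the library medians set equal, 797 genes were higher and 1027 lower, so the higher genes made up 43.7% of the calls in place of 33.5%.

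The genes higher in c-kit+ cells were fewer but included the most abundant ones. Together the 641 genes accounted for 16.5%, 11.0% and 13.7% of the total in AML-WT-c-kit+ libraries 1, 2 and 3, and for 1.85%, 2.04% and 4.53% in AML-WT-c-kit- libraries. The 1275 lower genes held 3.1%, 3.22% and 3.32% in AML-WT-c-kit+ libraries and 11.7%, 10.9% and 11.6% in AML-WT-c-kit- libraries. Since these genes were picked by the same test, the shares describe its size and are no further evidence. Without library 3 of AML-WT-c-kit- cells, 726 genes were higher and 1271 lower.

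**Figure D1:**
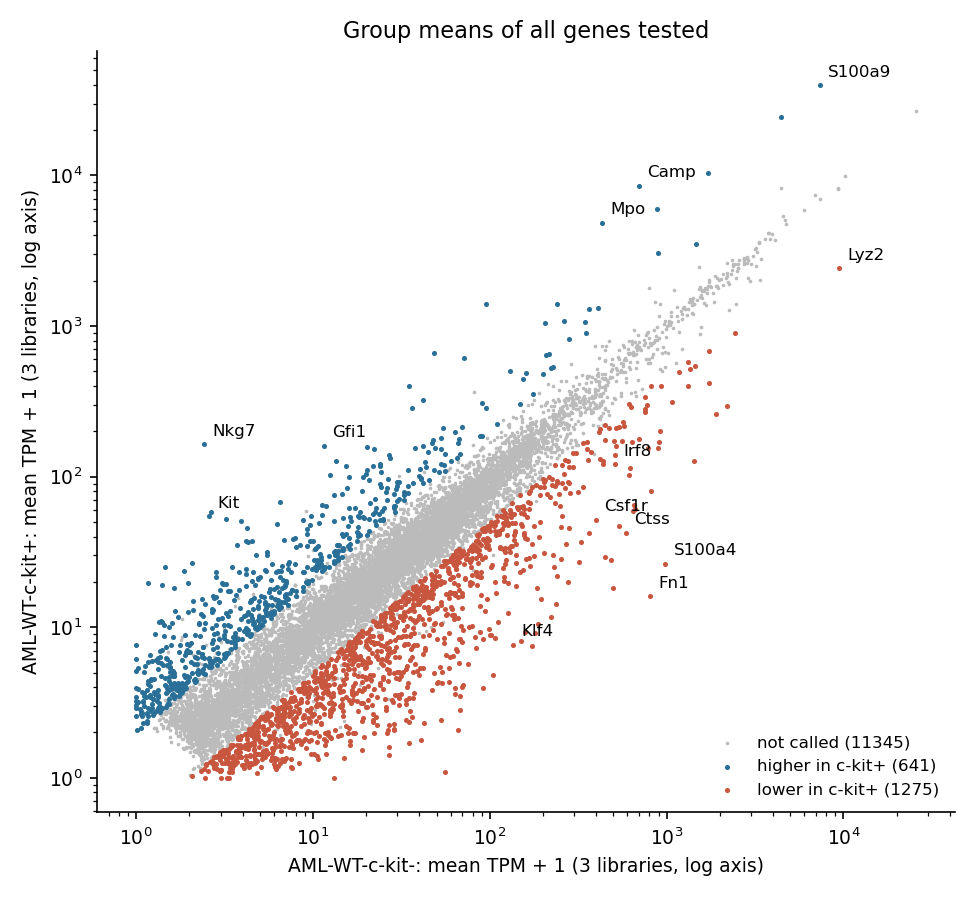
Mean TPM + 1 of each of the 13261 genes tested in AML-WT-c-kit- cells (horizontal, log axis) and AML-WT-c-kit+ cells (vertical, log axis), 3 libraries each. The 641 blue genes lie above the diagonal and include the abundant genes S100a9, Camp and Mpo, and the 1275 red genes lie below it and include Fn1, S100a4, Klf4 and Ctss.

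The largest rises toward c-kit+ cells ran from genes near 0 in c-kit- cells to granule genes already abundant there. Nkg7, known as a granule membrane protein of cytotoxic lymphocytes, led them with 0.75, 1.97 and 1.53 TPM in AML-WT-c-kit- against 165, 192 and 136 TPM in AML-WT-c-kit+ libraries (log2 fold change 6.11, standard error 0.22, limma adjusted p = 1.1e-05). Among the 12 largest rises, Kit was second and was followed by Chit1, the chitinase chitotriosidase, at 0.72, 1.56 and 2.71 TPM against 57.7, 47.5 and 66.0 TPM (log2 fold change 4.50, standard error 0.28, limma adjusted p = 5.72e-05). Cdkn1c, which encodes the cyclin-dependent kinase inhibitor p57, had 0.93, 1.63 and 4.07 TPM and 57.2, 44.9 and 50.9 TPM (log2 fold change 4.13, standard error 0.34, limma adjusted p = 0.000157). In each of these the lowest c-kit+ library was more than 10 times the highest c-kit- library. Lipg, the endothelial lipase, Cnmd, the cartilage glycoprotein chondromodulin, Mogat2, a monoacylglycerol acyltransferase, and Slc5a11, a sodium-coupled inositol transporter, had log2 fold changes of 4.12, 4.05, 3.89 and 3.74. Their mean levels in AML-WT-c-kit+ cells were 24.0 ± 6.53 TPM, 18.6 ± 4.76 TPM, 49.6 ± 10.1 TPM and 18.2 ± 6.91 TPM (SD, n = 3). The other 4, Fcnb, Camp, Gfi1 and Ms4a3, belong to gene groups described below.

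The largest fall was that of Fn1, which encodes the matrix protein fibronectin. It read 1058, 642 and 708 TPM in AML-WT-c-kit- libraries and 9.54, 10.2 and 25.3 TPM in AML-WT-c-kit+ libraries (log2 fold change −5.75, standard error 0.38, limma adjusted p = 6.61e-05), a ratio of means of 53.4. Tgfbi, a matrix protein induced by TGF-beta, had 170.3, 172 and 176 TPM and 4.8, 7.14 and 7.67 TPM (log2 fold change −4.55, standard error 0.15, limma adjusted p = 9.71e-06). Both matrix genes were thus expressed by c-kit- cells at levels that no c-kit+ library reached. The calcium-dependent protease gene Capn2 (log2 fold change −4.60), the guanine nucleotide exchange factor gene Arhgef37 and the glycosyltransferase gene Galnt9 (−4.38) were also among the 12 largest falls. So were the inhibitory or activating surface receptor genes Lilra6 (−4.57), Klra2 (−4.50) and Sirpb1c (−4.44), which belong to families of near-identical copies whose reads the quantification may have split unevenly. Gm37468, an antisense transcript with 57.6, 45.1 and 62.1 TPM in AML-WT-c-kit- cells and 0.16, 0.1 and 0 TPM in AML-WT-c-kit+ cells, lies within Sirpb1b on the other strand. Sirpb1b had a log2 fold change of −4.16. Whether strand was used in the counting is not given in the sources used here, so reads of Gm37468 and Sirpb1b may be shared. The remaining falls, S100a4, S100a6 and Ifi27l2a, are described with their groups.

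Primary granule genes encode the proteases and peroxidase that neutrophil precursors store first, at the promyelocyte stage. The list used here also holds other genes, among them Ms4a3, Serpinb1a, Srgn and Nkg7. It was written with earlier results of these data known. Of its 14 genes tested, 9 were higher in AML-WT-c-kit+ cells, 1 was lower and 4 were not called, against 4.83% and 9.61% of all genes. List members that did not pass the filter on low values are not counted here or below. The shares of all genes given here are the background for the counts of every list below. The median log2 fold change of the 14 was 1.76, where that of all genes was −0.08. The list summed to 8750, 9090 and 8560 TPM in AML-WT-c-kit- libraries and 21400, 27600 and 22600 TPM in AML-WT-c-kit+ libraries, so the group was the more abundant in every c-kit+ library.

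Elane, the gene of neutrophil elastase, was the most abundant of them in c-kit+ cells, with 1056, 837 and 752 TPM in AML-WT-c-kit- cells and 5105, 7022 and 5962 TPM in AML-WT-c-kit+ cells (log2 fold change 2.78, standard error 0.17, limma adjusted p = 5.26e-05). Mpo, whose product myeloperoxidase makes hypochlorous acid, had 451, 455 and 389 TPM and 4264, 5947 and 4355 TPM (log2 fold change 3.48, standard error 0.15, limma adjusted p = 1.95e-05). Library 2 was the highest of the c-kit+ libraries for both genes and for Prtn3, the gene of proteinase 3. Prtn3 changed less, from 1501, 1515 and 1357 TPM to 3008, 4191 and 3354 TPM (log2 fold change 1.26, standard error 0.14, limma adjusted p = 0.000543), and the cathepsin G gene Ctsg had 411, 469 and 343 TPM and 1158, 1679.9 and 1094 TPM (log2 fold change 1.67, standard error 0.19, limma adjusted p = 0.000639). The ratio of group means was 11.3 for the peroxidase gene Mpo, 6.84 for Elane and 2.41 for Prtn3, and the difference between these ratios was not tested. Genes of proteins that accompany the proteases were also higher. Ms4a3, a membrane protein gene of granulocyte-monocyte progenitors, had 33.5, 54.2 and 55.1 TPM and 668, 696 and 620.2 TPM (log2 fold change 3.80). Serpinb1a, which encodes an inhibitor of elastase, Prss57, a serine protease of azurophil granules, and Srgn, the proteoglycan that packs granule proteases, had log2 fold changes of 3.15, 2.97 and 1.85. Nkg7 was counted in this list too. Against the group, Ctsc, which encodes the peptidase that activates the granule serine proteases, was lower in c-kit+ cells, at 214, 197 and 196 TPM in AML-WT-c-kit- against 24.1, 33.4 and 33.3 TPM in AML-WT-c-kit+ libraries (log2 fold change −2.72, standard error 0.13, limma adjusted p = 2.58e-05). Mpo, Prtn3 and Prss57 are each overlapped by a gene on the other strand, with mean levels over the 6 libraries of 23.9 TPM for Gm11505, 121 TPM for Plppr3 and 3.31 TPM for Fstl3.

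Promoters were read from RefSeq tables of build GRCm38.p6, which hold 1 or more windows of 250 bases before and 50 after a gene's start. The first window listed was matched by symbol for 9305 of the 13261 genes tested, 441 of the 641 higher and 890 of the 1275 lower. A motif of the myeloid factor PU.1, GAGGAAGT read on both strands, was in 3.59% of all these windows. Its share was 4.99% among windows of higher genes and 5.96% among those of lower genes. It was in 4 of the 11 primary granule windows (36.4%), and in 9 of 46 windows of phagocyte receptor genes (19.6%), a list that was mostly lower in c-kit+ cells. A C/EBP motif, TTGCNNAA on both strands, was in 8.48% of all windows, in 12.7% of those of higher genes and in 9.44% of those of lower genes. Among secondary and tertiary granule genes the C/EBP motif was in 9 of 25 windows (36.0%), but in only 3 of 12 of the members called higher (25.0%). Among phagocyte receptor genes it was in 11 of 46 windows (23.9%). A RUNX motif, TGTGGT on both strands, was in 12.9% of all windows and in 36.4%, 32.0% and 30.4% of those of the primary granule, secondary and tertiary granule and phagocyte receptor lists. The median number of CpG dinucleotides was 21 over all windows and 5, 3 and 3 in the same lists. More frequent matches in these lists were therefore not particular to PU.1 and C/EBP. None of the motifs contains another, though matches may overlap by some bases, and a match describes letters only. The following stretches of 120 bases end at the base before the start of the gene, taken as the more upstream of the RefSeq and GENCODE starts. They are shown because each gene was higher in c-kit+ cells and holds a match, in capitals, of the PU.1 motif (Elane, at chr10:79886127-79886246 on the forward strand, and Itgb2l, at chr16:96443620-96443739 on the reverse strand) or of the C/EBP motif (Fcnb, at chr2:28084886-28085005 on the reverse strand, and Ngp, at chr9:110419627-110419746 on the forward strand).
Elane: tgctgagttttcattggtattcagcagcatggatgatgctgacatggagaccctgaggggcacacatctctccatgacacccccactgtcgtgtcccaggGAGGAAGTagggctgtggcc
Itgb2l: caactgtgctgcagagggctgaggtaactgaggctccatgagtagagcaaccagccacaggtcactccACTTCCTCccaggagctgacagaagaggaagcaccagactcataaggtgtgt
Fcnb: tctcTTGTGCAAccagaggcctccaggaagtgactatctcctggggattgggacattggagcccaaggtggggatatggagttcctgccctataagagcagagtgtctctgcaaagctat
Ngp: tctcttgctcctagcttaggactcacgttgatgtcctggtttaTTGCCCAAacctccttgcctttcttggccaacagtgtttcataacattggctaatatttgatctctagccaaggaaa

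Secondary and tertiary granule genes, which neutrophil precursors switch on after the primary ones, were higher in c-kit+ cells in part, with wide spread between c-kit- libraries. Of 29 tested, 14 were higher, 3 lower and 12 not called, against 4.83% higher and 9.61% lower of all genes. The median log2 fold change was 1.31. The list summed to 26200, 21000 and 50100 TPM in AML-WT-c-kit- libraries and 131000, 71100 and 107000 TPM in AML-WT-c-kit+ libraries. Most of each c-kit+ sum came from S100a9 and S100a8, whose products are cytosolic. By this sum library 3 of AML-WT-c-kit- cells was the highest of its group and still under every c-kit+ library. Without it, 16 members were higher and 2 lower, and the median relative to all genes went from 1.40 to 2.10.

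S100a9 and S100a8 encode the subunits of calprotectin, a protein that binds calcium and zinc and fills the neutrophil cytosol. S100a9 was the most abundant gene of AML-WT-c-kit+ cells on average, with 2979, 3702 and 15307 TPM in AML-WT-c-kit- libraries and 53539, 26183 and 39286 TPM in AML-WT-c-kit+ libraries (log2 fold change 2.78, standard error 0.64, limma adjusted p = 0.0129). S100a8 had 1959.9, 2406 and 8875 TPM and 32009.7, 17013 and 24551 TPM (log2 fold change 2.77, standard error 0.58, limma adjusted p = 0.00894). For both, library 3 of AML-WT-c-kit- cells stood several times above libraries 1 and 2. Camp, the gene of the cathelicidin antimicrobial peptide, had 254, 402 and 1426 TPM and 10573, 6163 and 8922 TPM (log2 fold change 3.98, standard error 0.61, limma adjusted p = 0.00234), and Ngp, which encodes neutrophilic granule protein, had 641, 892 and 3576 TPM and 13554, 6915 and 10791 TPM (log2 fold change 2.98, standard error 0.64, limma adjusted p = 0.0096). The order of the 6 libraries was the same in these 4 genes, from low to high, with c-kit- libraries 1, 2 and 3 below c-kit+ libraries 2, 3 and 1. Chit1 was counted in this list too. Fcnb, the lectin ficolin B, had 51.3, 67.2 and 165 TPM and 1705, 1133 and 1356 TPM (log2 fold change 4.04, standard error 0.42, limma adjusted p = 0.000411). Olfm4, Pglyrp1, Chil1 and Cd177, further products of neutrophil granules or their membranes, had log2 fold changes of 2.58, 2.25, 2.14 and 1.31. Itgb2l, Wfdc21 and Cd177 lost their calls in some fits that left out 1 library. Ltf and Lcn2, the classical secondary granule genes for lactoferrin and lipocalin 2, were not called, with log2 fold changes of 1.18 (limma adjusted p = 0.234) and 1.42 (limma adjusted p = 0.0863). Their levels were 154, 188 and 950.4 TPM and 389.9, 416 and 1587 TPM in AML-WT-c-kit- cells and 1059, 411 and 742 TPM and 2192, 1130.2 and 2016 TPM in AML-WT-c-kit+ cells.

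The 3 members lower in c-kit+ cells were Lyz2, Mmp8 and Ifitm6. Lyz2, the lysozyme gene that monocytes and macrophages express most, ranked in AML-WT-c-kit- cells behind only mt-Atp8 and Gm28661, a nuclear copy of mitochondrial sequence, with 10672, 7234 and 10454 TPM there and 2968, 1644 and 2681 TPM in AML-WT-c-kit+ cells (log2 fold change −1.98, standard error 0.27, limma adjusted p = 0.00133). Mmp8, neutrophil collagenase, had 85.1, 54.8 and 84.0 TPM and 4.02, 2.63 and 7.4 TPM (log2 fold change −3.79, standard error 0.32, limma adjusted p = 0.000184). Ifitm6 had a log2 fold change of −1.29 and lost its call in some fits that left out 1 library.

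**Figure D2:**
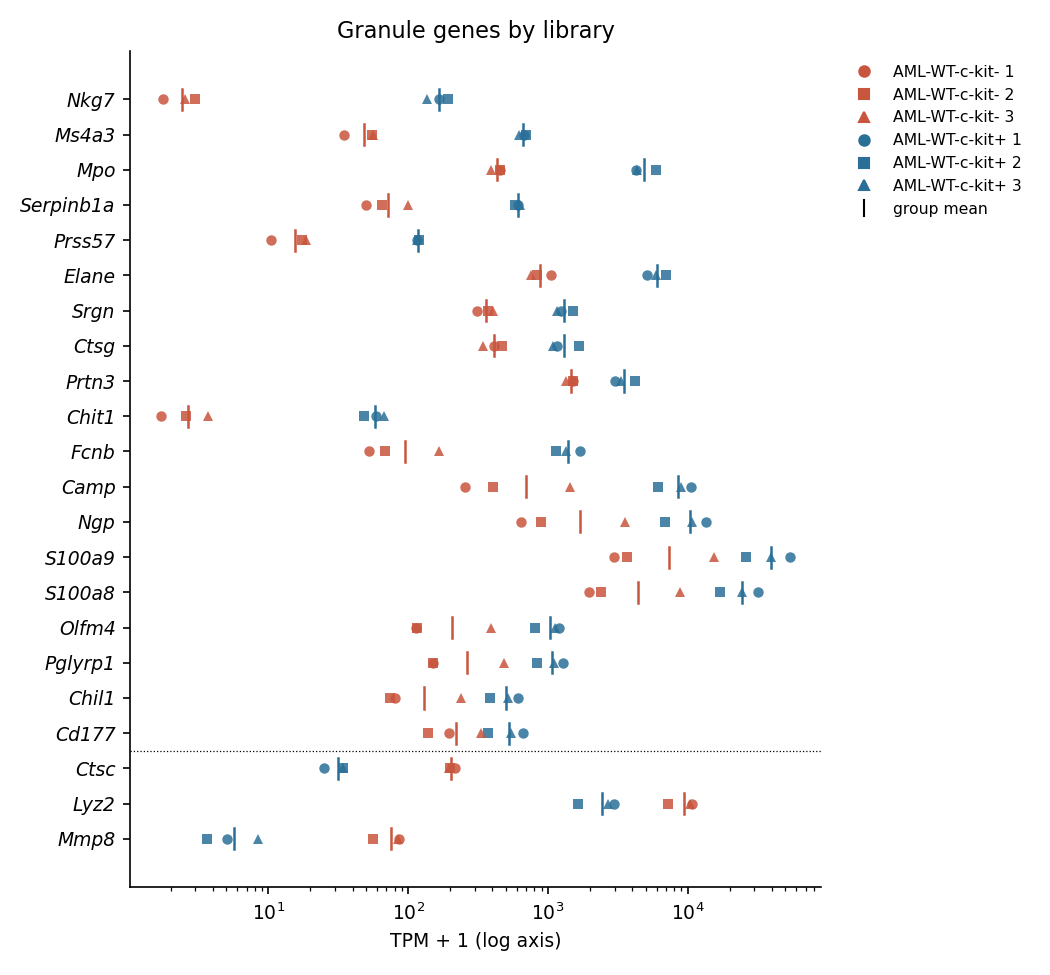
TPM + 1 (log axis) of granule genes, and of S100a9 and S100a8, in each of the 6 libraries, red for AML-WT-c-kit- and blue for AML-WT-c-kit+, with a bar at each group mean of 3 libraries. Above the dotted line every c-kit+ library lies above every c-kit- library, with the red triangle of library 3 nearest to the blue points for Camp, Ngp, S100a9 and S100a8, and below the line Ctsc, Lyz2 and Mmp8 lie the other way.

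The S100 genes formed a cluster in which neighbours differed in opposite directions. Of the S100a genes on chromosome 3 that were tested, S100a8 (chr3:90668978-90670035 of GRCm38) and S100a9 (chr3:90692632-90695721) were higher in c-kit+ cells. S100a4 (chr3:90603771-90606045) and S100a6 (chr3:90612882-90624181), in the same stretch, were lower. S100a4, linked to cell motility, had 967, 944 and 1031 TPM in AML-WT-c-kit- libraries and 23.9, 23.8 and 28.5 TPM in AML-WT-c-kit+ libraries (log2 fold change −5.22, standard error 0.09, limma adjusted p = 1.37e-06), and S100a6 had 499, 458 and 529.8 TPM and 13.2, 17.3 and 21.3 TPM (log2 fold change −4.78, standard error 0.16, limma adjusted p = 9.71e-06). The spread within either group was small beside this difference. S100a10, the partner of annexin A2, was lower too (log2 fold change −3.97), while S100a1 (0.69), S100a11 (0.69) and S100a13 (−0.31) were not called. S100a10, S100a1, S100a11 and S100a13 were chosen after their values were seen.

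Of 50 transcription factor genes of the blood lineages tested, 5 were higher in c-kit+ cells, 14 were lower and 31 were not called, with a median log2 fold change of −0.42. Over all genes 4.83% were higher and 9.61% lower. Gfi1, a repressor needed for neutrophil formation, had 8.22, 8.28 and 15.1 TPM in AML-WT-c-kit- against 179, 152 and 148 TPM in AML-WT-c-kit+ libraries (log2 fold change 3.84, standard error 0.22, limma adjusted p = 4.53e-05). Cebpe, which drives the secondary granule genes, had 25.5, 27.6 and 70.4 TPM and 366, 269 and 334 TPM (log2 fold change 3.09, standard error 0.37, limma adjusted p = 0.00084), with library 3 again the highest of the c-kit- group. Myb, a progenitor factor and a target of MLL-AF9, was abundant in both groups, at 153, 165 and 140.2 TPM and 423, 459 and 455 TPM (log2 fold change 1.54, standard error 0.08, limma adjusted p = 2.72e-05). For all 3 genes the groups lay far apart beside the spread within them. Zeb1 and Id1 were the other members higher in c-kit+ cells (log2 fold changes 1.95 and 1.65).

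Among the lower factors, Klf4, a factor that promotes monocyte differentiation, had 138, 131 and 131 TPM in AML-WT-c-kit- cells and 4.99, 7.14 and 7.85 TPM in AML-WT-c-kit+ cells (log2 fold change −4.16, standard error 0.15, limma adjusted p = 1.08e-05). Irf8, which steers progenitors toward monocytes and dendritic cells, was the most abundant of the lower factors, with 593, 494 and 435 TPM and 93.3, 132 and 135 TPM (log2 fold change −2.08, standard error 0.17, limma adjusted p = 0.00017). Irf5, a factor of Toll-like receptor signalling, had 225, 234 and 259.7 TPM and 18.7, 24.0 and 19.5 TPM (log2 fold change −3.47, standard error 0.11, limma adjusted p = 8.94e-06). Neither group overlapped the other for any of the 3. Rara, the retinoic acid receptor alpha, and Irf4 had log2 fold changes of −3.58 and −2.52, and Cebpb, the C/EBP member of monocytes and emergency granulopoiesis, −1.36. The factors shared by both paths differed less. Spi1, which encodes PU.1, had 406, 384 and 462 TPM and 316, 287 and 317 TPM (log2 fold change −0.44, standard error 0.09, limma adjusted p = 0.00675), and Cebpa had 79.7, 82.9 and 81.4 TPM and 47.4, 58.7 and 54.7 TPM (log2 fold change −0.60, standard error 0.09, limma adjusted p = 0.00179), both past the adjusted p but under the limit on size. Runx1 (−0.47), Gata2 (−0.46) and Cebpd (0.14) were not called. Irf8 shares its strand with the overlapping Gm20388, Irf5 overlaps Tnpo3 and Cebpb overlaps Tmem189 on the other strand, so their reads may be shared.

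**Figure D3:**
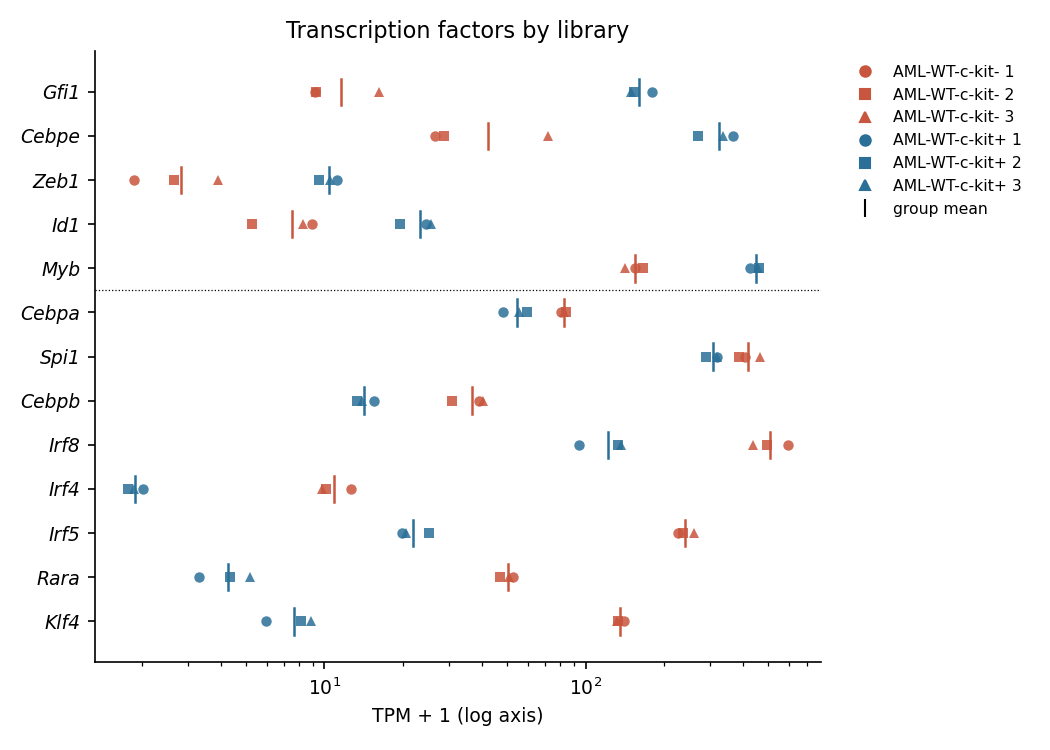
TPM + 1 (log axis) of 13 transcription factor genes in each of the 6 libraries, red for AML-WT-c-kit- and blue for AML-WT-c-kit+, with a bar at each group mean of 3 libraries. Gfi1, Cebpe, Zeb1, Id1 and Myb lie higher in every c-kit+ library, Cebpa and Spi1 lie close together in the groups, and Klf4, Rara and Irf5 are farthest lower in c-kit+ cells.

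Cytokine receptor genes that differed were lower in c-kit+ cells, save Kit, on whose product the cells were sorted. Of 32 tested, Kit alone was higher and 17 were lower, against 9.61% of all genes, with a median log2 fold change of −1.04. Csf1r, the receptor of macrophage colony-stimulating factor, had 423, 393 and 380.1 TPM in AML-WT-c-kit- against 36.1, 51.0 and 65.5 TPM in AML-WT-c-kit+ libraries (log2 fold change −2.98, standard error 0.20, limma adjusted p = 7.12e-05). Flt3, another receptor tyrosine kinase of progenitors, had 63.0, 80.2 and 36.6 TPM and 6.72, 18.6 and 11.2 TPM (log2 fold change −2.24, standard error 0.40, limma adjusted p = 0.00448). Kit, which the sort set, aside, the receptor tyrosine kinase genes Csf1r and Flt3 of the list were thus lower in c-kit+ cells. Il17ra, the interleukin 17 receptor, had 233, 222 and 223 TPM and 25.3, 32.3 and 30.4 TPM (log2 fold change −2.91, standard error 0.09, limma adjusted p = 9.09e-06). Il13ra1, Il10ra, Il6st and Il6ra, receptor chains for interleukins 13, 10 and 6, had log2 fold changes of −3.63, −3.18, −2.71 and −2.28. Ifnar1 and Ifnar2, which together form the type I interferon receptor, were both lower. Ifnar2 had 241, 227 and 228 TPM and 77.5, 95.2 and 84.8 TPM (log2 fold change −1.43) and Ifnar1 a log2 fold change of −1.47. The beta chain genes of the interleukin 3 receptor were lower (Csf2rb −1.40, Csf2rb2 −1.75). Csf3r, the receptor of granulocyte colony-stimulating factor, was not called at 0.39 (limma adjusted p = 0.157). Cd74, which is counted here as a chemokine-like receptor, lost its call in some fits that left out 1 library.

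None of the 8 chemokine receptor genes tested was higher and 5 were lower, against 4.83% and 9.61% of all genes. Ccr2, which brings monocytes out of the marrow, had 359, 243 and 224 TPM in AML-WT-c-kit- libraries and 14.5, 18.1 and 24.3 TPM in AML-WT-c-kit+ libraries (log2 fold change −3.79, standard error 0.23, limma adjusted p = 5.26e-05). Cx3cr1, the fractalkine receptor of patrolling monocytes and macrophages, had 141, 113 and 124 TPM and 7.7, 12.4 and 14.4 TPM (log2 fold change −3.38), and Ccr1 had 69.8, 67.6 and 68.9 TPM and 6.63, 5.79 and 8.4 TPM (−3.15). These are receptors of the monocyte lineage. The neutrophil receptor Cxcr2 (−0.05) and the marrow retention receptor Cxcr4 (−0.92) were not called. Among 29 chemokine and cytokine genes, 6 were lower and Vegfa alone was higher, with a median of −0.40. Relative to all genes the median was −0.31, and without library 3 of AML-WT-c-kit- cells it was −0.04. Vegfa, the vascular endothelial growth factor, had 4.3, 9.54 and 20.6 TPM in AML-WT-c-kit- against 110.2, 98.8 and 95.4 TPM in AML-WT-c-kit+ libraries (log2 fold change 3.26, standard error 0.46, limma adjusted p = 0.00164). Its c-kit- libraries were spread widely but all lay under the c-kit+ libraries. The most abundant lower ligand gene was Ccl3 (375, 801 and 908 TPM and 159, 272 and 102 TPM, log2 fold change −1.98), and the largest fall was that of Ccl6 (188, 151 and 197 TPM and 6.87, 8.31 and 9.15 TPM, −4.30).

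Phagocyte receptors, which recognise microbes, dying cells and antibody, were a long list with many lower members. Of 58 tested, 31 were lower and 3 higher, against 9.61% and 4.83% of all genes, with a median log2 fold change of −1.33. Fcer1g, the signalling chain of Fc receptors, had 947, 864 and 965 TPM in AML-WT-c-kit- against 387, 365 and 443 TPM in AML-WT-c-kit+ libraries (log2 fold change −1.22, standard error 0.09, limma adjusted p = 0.000112). Clec7a, the beta-glucan receptor dectin-1, had 438, 319.5 and 330.4 TPM and 30.7, 40.2 and 52.5 TPM (log2 fold change −3.13, standard error 0.21, limma adjusted p = 7.11e-05), and Cd68, a lysosomal glycoprotein of macrophages, 343, 286 and 313 TPM and 62.8, 85.0 and 85.6 TPM (log2 fold change −2.01, standard error 0.14, limma adjusted p = 7.55e-05). No c-kit+ library reached a c-kit- library in any of the 3. Toll-like receptor genes differed widely in size of change. Tlr8 (log2 fold change −3.90), Tlr13 (−3.81) and Tlr9 (−3.35), which sense nucleic acids, were farther lower than Tlr2 (−2.35), Tlr6 (−2.16) and Tlr1 (−1.93), which sense lipopeptides, though these differences between genes were not tested. Tlr4, the receptor of lipopolysaccharide, was higher in c-kit+ cells at low levels, 3.4, 3.63 and 5.45 TPM against 11.5, 7.94 and 8.45 TPM (limma adjusted p = 0.00768), just past the limit on size. Clec4a2 and C5ar2 were the other higher members (log2 fold changes 1.03 and 1.04), and all 3 calls were lost in some fits that left out 1 library. The paired receptors Pira2, Pirb, Lilrb4a and Sirpb1a were lower (log2 fold changes −4.07, −2.92, −3.20 and −3.85), with the reservation that near-identical copies exist. Markers used to sort myeloid cells did not all follow: Itgam, which encodes CD11b, had 205, 195 and 302 TPM and 307, 193 and 274 TPM (0.14), and Ly6c2 (−0.57) and Ly6g (0.44) were not called either.

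Of 39 lysosome genes tested, 17 were lower, 1 was higher and 21 were not called, against 9.61% lower and 4.83% higher of all genes. Their median log2 fold change was −0.80. Their sum reached 9410, 8760 and 9260 TPM in AML-WT-c-kit- libraries and 4210, 4230 and 4440 TPM in AML-WT-c-kit+ libraries. Psap, the precursor of the saposins that help degrade sphingolipids, had 1891, 1795 and 2044 TPM and 242, 256 and 279.8 TPM (log2 fold change −2.88, standard error 0.08, limma adjusted p = 8.84e-06). Ctss, the cathepsin of antigen-presenting cells, had 621, 553 and 593 TPM and 30.8, 45.2 and 48.2 TPM (log2 fold change −3.82, standard error 0.16, limma adjusted p = 1.99e-05). The carboxypeptidase gene Ctsa (−1.70), the aminopeptidase-like cathepsin gene Ctsh (−1.70) and the legumain gene Lgmn (−2.76) moved the same way. The gene of cathepsin D was not called (Ctsd, log2 fold change 0.11, limma adjusted p = 0.294). Cd63, a tetraspanin of late endosomes and primary granules, was the only higher member, at 20.3, 35.8 and 46.0 TPM in AML-WT-c-kit- against 404, 404 and 382 TPM in AML-WT-c-kit+ cells (log2 fold change 3.58, standard error 0.27, limma adjusted p = 0.00011).

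**Figure D4:**
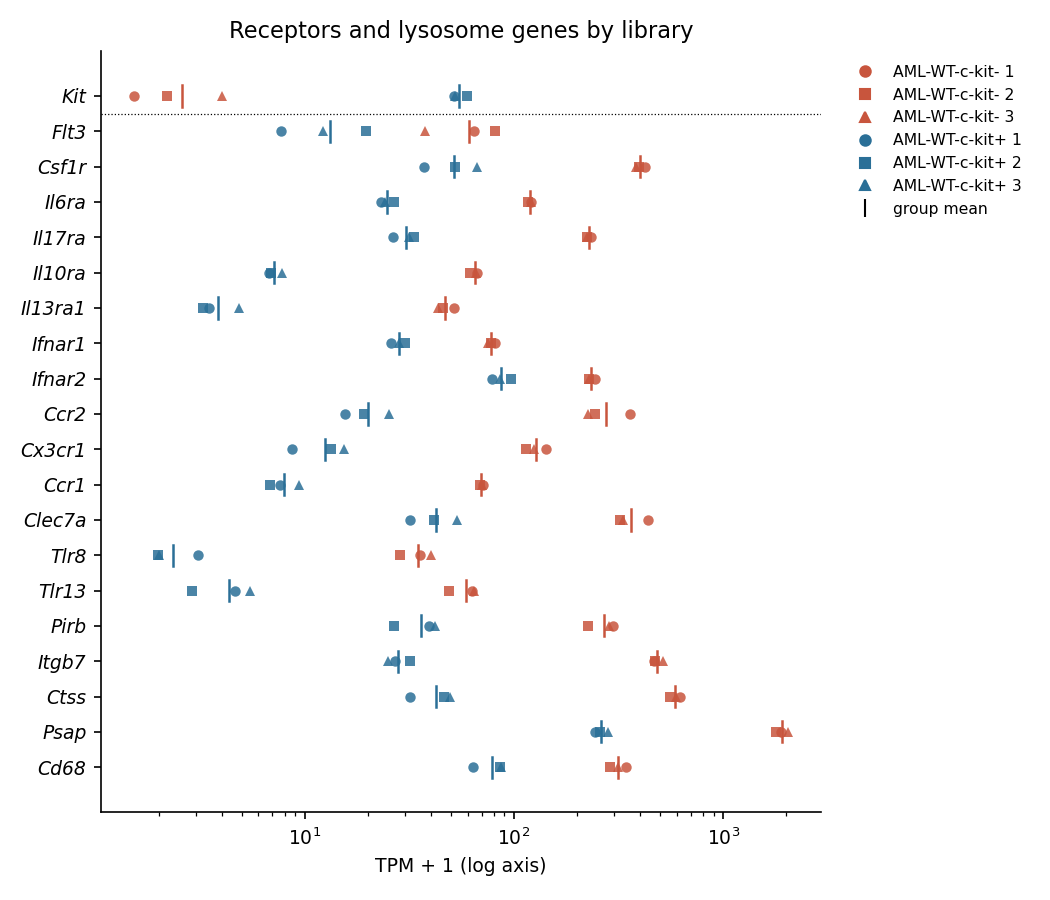
TPM + 1 (log axis) of Kit (above the dotted line) and of receptor and lysosome genes in each of the 6 libraries, red for AML-WT-c-kit- and blue for AML-WT-c-kit+, with a bar at each group mean of 3 libraries. Kit is higher and every other gene shown is lower in all 3 c-kit+ libraries, with the points of a group close together beside the distance between groups for Ctss, Psap, Il17ra and Ccr1.

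More interferon-stimulated genes were lower than higher in c-kit+ cells, but they did not differ as a block. Of 48 tested, 22 were lower and 4 higher, against 9.61% and 4.83% of all genes, with a median log2 fold change of −0.83. Their sum reached 4530 to 5340 TPM in AML-WT-c-kit- libraries and 1840 to 2010 TPM in AML-WT-c-kit+ libraries. Ly6e, a surface protein that restricts virus entry, had 2294, 2444 and 2528 TPM and 747, 1044 and 912 TPM (log2 fold change −1.44, standard error 0.13, limma adjusted p = 0.000237). Ifitm3, which blocks virus fusion in endosomes, had 624, 520.3 and 777 TPM and 63.5, 42.3 and 67.7 TPM (log2 fold change −3.46, standard error 0.21, limma adjusted p = 5.36e-05), and Ifi27l2a 89.5, 95.1 and 127 TPM and 4.7, 1.43 and 5.27 TPM (log2 fold change −4.55, standard error 0.36, limma adjusted p = 0.000143). Library 3 was the highest c-kit- library for each of them. Irf7, the master factor of type I interferon genes and the gene studied in this series, had 23.5, 22.3 and 32.3 TPM and 5.31, 3.91 and 3.36 TPM (log2 fold change −2.38, standard error 0.19, limma adjusted p = 0.000154), and it is overlapped by Phrf1 on the other strand. Mx1, Slfn5, Zbp1 and Samhd1 had log2 fold changes of −3.35, −3.35, −2.61 and −1.96. Other genes that interferon induces strongly were not called, among them Isg15 (−0.27), Oas2 (0.53) and Ifih1 (0.10). Ddx58, the RNA sensor RIG-I, was higher in c-kit+ cells, at 2.96, 3.57 and 7.87 TPM against 14.9, 14.6 and 15.5 TPM (log2 fold change 1.56, standard error 0.29, limma adjusted p = 0.00569), and so were Ifi27 (1.32), the exonuclease gene Isg20 (1.28) and Oas1g (1.03). Oas1g, Gbp2 and Oas3 lost their calls in some fits that left out 1 library.

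The core of the interferon response element, GAAANNGAA on both strands, was in 7.54% of all promoter windows, in 12.4% of those of genes lower in c-kit+ cells and in 6.12% of those of genes higher in c-kit+ cells. In the interferon-stimulated list 22 of 37 windows held it (59.5%), 8 of 15 among its lower members (53.3%) and 2 of 3 among its higher members (66.7%). The match was thus frequent among members of either direction, though the higher members were few. An AP-1 motif, TGANTCA on both strands, was in 4.9% of all windows and in 10 of 37 of this list (27.0%). It was in 6 of 15 windows of the lower members (40.0%) and in 0 of 3 of the higher ones. The median number of CpG dinucleotides was 6 in the list and 21 over all windows. More frequent matches in the list were therefore not particular to the interferon core. Stretches of 120 bases before the start are shown for 2 lower members of that list, Slfn8 (chr11:83020811-83020930, reverse strand) and Phf11b (chr14:59341352-59341471, reverse strand), and for Ctss (chr3:95526666-95526785, forward strand), the cathepsin of the lysosome list with the largest fall, with the match in capitals.
Slfn8: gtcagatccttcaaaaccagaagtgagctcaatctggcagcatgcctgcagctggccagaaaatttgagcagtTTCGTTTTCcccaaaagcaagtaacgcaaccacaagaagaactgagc
Phf11b: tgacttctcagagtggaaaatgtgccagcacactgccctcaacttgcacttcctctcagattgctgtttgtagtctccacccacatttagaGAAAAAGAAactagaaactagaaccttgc
Ctss: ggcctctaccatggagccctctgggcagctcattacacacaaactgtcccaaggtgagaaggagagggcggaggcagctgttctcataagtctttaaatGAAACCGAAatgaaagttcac

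Of 27 NF-kappaB subunit and feedback genes, 9 were lower and 1 was higher, with a median of −0.58, where 9.61% of all genes were lower and 4.83% higher. Nfkb1, the gene of the p50 subunit, had 319.6, 386 and 350.2 TPM in AML-WT-c-kit- against 139.9, 165 and 151 TPM in AML-WT-c-kit+ libraries (log2 fold change −1.20, standard error 0.09, limma adjusted p = 0.000131), the inflammasome gene Nlrp3 a log2 fold change of −2.72 and the kinase gene Ikbkb −1.11. Ikbke, a related kinase that acts upstream of interferon genes, was the higher member, with 50.2, 46.2 and 58.9 TPM and 157, 149 and 152 TPM (log2 fold change 1.55, standard error 0.09, limma adjusted p = 5.01e-05). With the library medians set equal, 5 of the NF-kappaB genes were lower and 2 higher. Of 32 immediate early and AP-1 genes, which respond within minutes to stimuli that include cell handling, 8 were lower and 3 higher, and relative to all genes their median was −0.48, between −0.98 without library 1 and −0.24 without library 3 of AML-WT-c-kit- cells. Fos had 298, 806 and 751 TPM and 106, 165 and 67.9 TPM (log2 fold change −2.41, standard error 0.46, limma adjusted p = 0.00606), Junb 178, 326 and 257 TPM and 89.0, 174 and 91.8 TPM (log2 fold change −1.12, standard error 0.32, limma adjusted p = 0.0283) and Nr4a1 108, 222 and 234 TPM and 33.7, 56.0 and 27.0 TPM (log2 fold change −2.23, standard error 0.37, limma adjusted p = 0.00327). These 3 genes varied together within a group, library 1 being the lowest of the c-kit- libraries and library 2 the highest of the c-kit+ libraries for each. Ier3 (1.28), Gadd45b (1.28) and Fosl1 (1.07) were higher in c-kit+ cells, while Jun (−0.48) and Egr1 (−0.23) were not called. Of 28 MHC genes, 7 were lower and none higher (median −0.63), or 2 lower with the library medians set equal and 5 without library 3 of AML-WT-c-kit- cells. H2-T23 had 231, 211 and 229.7 TPM and 96.1, 97.8 and 92.8 TPM (log2 fold change −1.22, standard error 0.06, limma adjusted p = 2.61e-05), H2-DMa, which loads peptide onto class II molecules, a log2 fold change of −1.94, and the class I gene H2-K1 −0.11, which was not called.

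Stem and progenitor genes split in both directions. Of 34 tested, 5 were higher, the sort gene Kit among them, and 6 lower, against 4.83% and 9.61% of all genes. The median log2 fold change was 0.23. Besides Kit, Cdkn1c and Myb, the higher members were Prom1, the gene of CD133, with 0.78, 1.8 and 5.56 TPM in AML-WT-c-kit- against 40.1, 29.4 and 32.3 TPM in AML-WT-c-kit+ libraries (log2 fold change 3.44, standard error 0.45, limma adjusted p = 0.00115), and Hlf, a stem cell factor near 1 TPM in c-kit+ cells and near 0 in c-kit- cells (log2 fold change 1.04, standard error 0.15, limma adjusted p = 0.00163). Lower in c-kit+ cells were Flt3, Cd48 (271, 243 and 230.2 TPM and 54.0, 71.6 and 62.2 TPM, log2 fold change −1.98), Txnip, an inhibitor of glucose uptake (−1.35), Tespa1 (−1.14), Pbx3 (−1.08) and Cd93, of which Tespa1, Pbx3 and Cd93 lost their calls in some fits that left out 1 library. Cd34, the marker of progenitors, was not higher in c-kit+ cells, with 124, 132 and 103 TPM and 64.3, 96.6 and 72.5 TPM (log2 fold change −0.63, limma adjusted p = 0.0212), short of the limit on size. Without library 3 of AML-WT-c-kit- cells, 8 members of the list were higher and 6 lower.

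Most genes through which MLL-AF9 is known to act were expressed in both populations and were not called, as held for most genes tested. Hoxa9 had 162, 171 and 169 TPM in AML-WT-c-kit- against 200.3, 173 and 194 TPM in AML-WT-c-kit+ libraries (log2 fold change 0.17, standard error 0.07, limma adjusted p = 0.0927), and its cofactor Meis1 had 46.6, 35.5 and 35.4 TPM and 39.0, 41.0 and 46.2 TPM (log2 fold change 0.11, standard error 0.13, limma adjusted p = 0.532). Hoxa10 (0.36), Mef2c (−0.51), Cdk6 (0.85) and Mecom (0.82) passed the adjusted p but not the limit on size. Of 25 MLL-AF9 target genes, 2 were higher, Myb and Dach1 (0.88, 0.95 and 3.25 TPM and 13.2, 9.7 and 12.1 TPM, log2 fold change 2.33), and 4 were lower, Flt3, Zeb2 (−1.26), Pbx3 and the survival gene Bcl2 (−1.04). The list's median was 0.03. Over all genes 4.83% were called higher and 9.61% lower. Of 40 epigenetic regulators of AML, 1 was higher, Aff1, a gene of the elongation complex that MLL fusions recruit (1.01), and none lower. Dnmt3a (0.34), Tet2 (−0.53), Ezh2 (0.17) and Dot1l (−0.01) were not called.

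Adhesion genes were lower in 12 and higher in 2 of 29 cases, against 9.61% and 4.83% of all genes, with a median of −0.46. Itgb7, the integrin chain of gut homing, had 463, 473 and 513 TPM in AML-WT-c-kit- against 25.9, 30.7 and 24.0 TPM in AML-WT-c-kit+ libraries (log2 fold change −4.12, standard error 0.10, limma adjusted p = 5.84e-06). Selplg, the selectin ligand PSGL-1, had 655, 614 and 628 TPM and 165, 160.1 and 185 TPM (log2 fold change −1.89, standard error 0.07, limma adjusted p = 1.25e-05). Genes of proteins that let leukocytes roll on vessel walls and home to tissues were thus among the lower ones. Vcam1 was higher, with 0.22, 0.32 and 0.5 TPM and 9.2, 7.42 and 12.7 TPM (log2 fold change 2.98, standard error 0.21, limma adjusted p = 8.32e-05), and Cd177 was the other. The integrin chains of the VCAM1 receptor, Itga4 (−0.89) and Itgb1 (−0.35), were not called. With the library medians set equal, 8 adhesion genes were lower and 3 higher. Their median relative to all genes was −0.38, and −0.85 without library 1 of AML-WT-c-kit- cells.

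Markers of macrophages resident in marrow, Vcam1 among them, split in both directions, with a median log2 fold change of −0.43. Of 11 tested, Vcam1, the iron exporter gene Slc40a1 (0.94, 1.68 and 4.77 TPM and 29.1, 17.6 and 25.3 TPM, log2 fold change 2.98) and the complement genes C1qa (0.43, 0.77 and 0.5 TPM and 2.21, 2.6 and 3.79 TPM, 1.29), C1qb (1.28) and C1qc (1.01) were higher in c-kit+ cells, C1qc losing its call in some fits that left out 1 library. Adgre1 (−1.35), Hmox1 (−2.19), Apoe (−2.54) and Cd163 (−2.65) were lower, and Cd5l, Mertk, Spic and Timd4 did not pass the filter. The summed level of the 15 markers was 572 to 1010 TPM in AML-WT-c-kit- libraries and 155 to 243 TPM in AML-WT-c-kit+ libraries, with Apoe the most abundant of them in every library. The part of such cells in the level of Vcam1 was not tested.

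Summed markers of most other lineages were low, save those of B cells and dendritic cells. None of the 14 T and NK cell markers passed the filter, and their sum was at most 3.86 TPM in a library, so Nkg7 was not accompanied by genes such as Cd3e, Ncr1 or Gzma. Of the B cell markers, Cd79a, Pax5 and Ebf1 did not pass the filter, while immunoglobulin transcripts were seen in both groups, with 426, 366 and 459.9 TPM and 116, 131 and 142 TPM of Ighm (log2 fold change −1.68, standard error 0.11, limma adjusted p = 6.73e-05). The 13 B cell markers summed to 657, 820 and 1220 TPM in AML-WT-c-kit- libraries and 235, 269 and 480 TPM in AML-WT-c-kit+ libraries. Of 126 immunoglobulin variable genes tested, 20 were lower and 2 higher, and of 9 constant genes 5 were lower and 0 higher. Of 9 dendritic cell genes tested, 6 were lower and none higher, among them Cd209a (−3.14) and Siglech (−1.79), besides Irf8, Flt3 and Tcf4 that progenitors share. The 12 dendritic cell markers summed to 880, 787 and 654 TPM in AML-WT-c-kit- libraries and 156, 226 and 220 TPM in AML-WT-c-kit+ libraries. The eosinophil genes Siglecf (log2 fold change 2.10) and Prg2 (1.69) were higher and Ear2 (−1.61) was lower, all at levels under 25 TPM. Of the mast cell and basophil genes Ms4a2 was higher (1.63), of the erythroid genes Tfrc, the transferrin receptor (1.45), and of the megakaryocyte genes Gp9 was higher (2.60) and Vwf and Itgb3 were lower. The globin genes were not called, and of 12 endothelial and stromal markers 2 passed the filter, Lepr being lower (−1.11). The part of other cells in the differences above was not tested.

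Genes of cell division showed small differences, most of them toward c-kit+ cells. Of 68 genes of DNA replication and S phase, none was called higher and only E2f2 was called lower, but 62 had a log2 fold change above 0. An adjusted p under 0.05 without regard to size was met by 30 of the 68 upward and 2 downward, against 14.0% and 27.6% of all genes. The median was 0.27, where that of all genes was −0.08. Mcm2 (0.41), a helicase subunit, and Rrm2 (0.71), the ribonucleotide reductase subunit, are examples. Of 83 genes of G2/M and mitosis none was called in either direction, and the median was 0.19. Among these 83, 11 passed the adjusted p upward, which is near the share of all genes, and 6 downward. Mki67 had 158, 123 and 108 TPM in AML-WT-c-kit- against 158, 118 and 152 TPM in AML-WT-c-kit+ libraries (log2 fold change 0.14, standard error 0.17, limma adjusted p = 0.536). In neither list did a gene other than E2f2 reach the limit on size and the adjusted p. E2f2, an activator of the cell cycle, went the other way, with 71.1, 61.4 and 64.0 TPM and 25.4, 16.1 and 22.4 TPM (log2 fold change −1.60, standard error 0.16, limma adjusted p = 0.000381). Among 37 cyclins, kinases, inhibitors and E2F genes, Cdkn1c was the only one higher and Cdkn1a, the gene of p21 (65.8, 108 and 108 TPM and 32.5, 40.8 and 25.8 TPM, log2 fold change −1.46), and Btg1 (−1.19) were lower beside E2f2. With the library medians set equal, 4 of these genes were higher and 3 lower. None of 57 replication histone genes was higher and Hist3h2ba was lower (−1.15). That list summed to only 442, 588 and 616 TPM in AML-WT-c-kit- libraries and 634, 566 and 379 TPM in AML-WT-c-kit+ libraries. How fully the libraries captured histone transcripts is not given in the sources used here.

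The machinery of protein synthesis and respiration was not called in either direction. Of 72 genes of the Myc network and ribosome biogenesis, 81 cytosolic ribosomal protein genes, 79 nuclear genes of oxidative phosphorylation, 13 mitochondrially encoded genes and 7 NADPH oxidase genes, 0 were called by limma. Their medians were 0.15, 0.03, −0.10, 0.03 and −0.08. Passing the adjusted p without regard to size were 10 higher and 4 lower genes of ribosome biogenesis, 5 and 15 of oxidative phosphorylation, and 2 and 2 of the NADPH oxidase. Over all genes 14.0% passed upward and 27.6% downward. Single enzymes of metabolism were called, at shares to be read against the 4.83% higher and 9.61% lower of all genes. Of 33 genes of serine, one-carbon and nucleotide synthesis, 3 were higher and none lower: Impdh1, an enzyme of guanine nucleotide synthesis (2.41, 6.18 and 4.95 TPM and 32.2, 34.4 and 25.9 TPM, log2 fold change 2.59), the asparagine synthetase gene Asns (1.84) and Phgdh, the first enzyme of serine synthesis (from 13.6 ± 3.14 TPM to 40.9 ± 13.7 TPM, SD, n = 3). Of 24 glycolysis genes, Ldhb (1.56), Pfkfb3 (1.29) and the lactate transporter gene Slc16a1 (1.19) were higher and Aldoc (−2.46) was lower. Of 24 cholesterol genes, 3 were lower and none higher, among them Cyp51, an enzyme of sterol synthesis (−1.24). Of 28 BCL2 family genes and p53 targets, 5 were lower and none higher, among them Bmf (−2.10) and Bbc3 (−1.31), which encode proteins that promote cell death, and Bcl2, which opposes it.

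**Figure D5:**
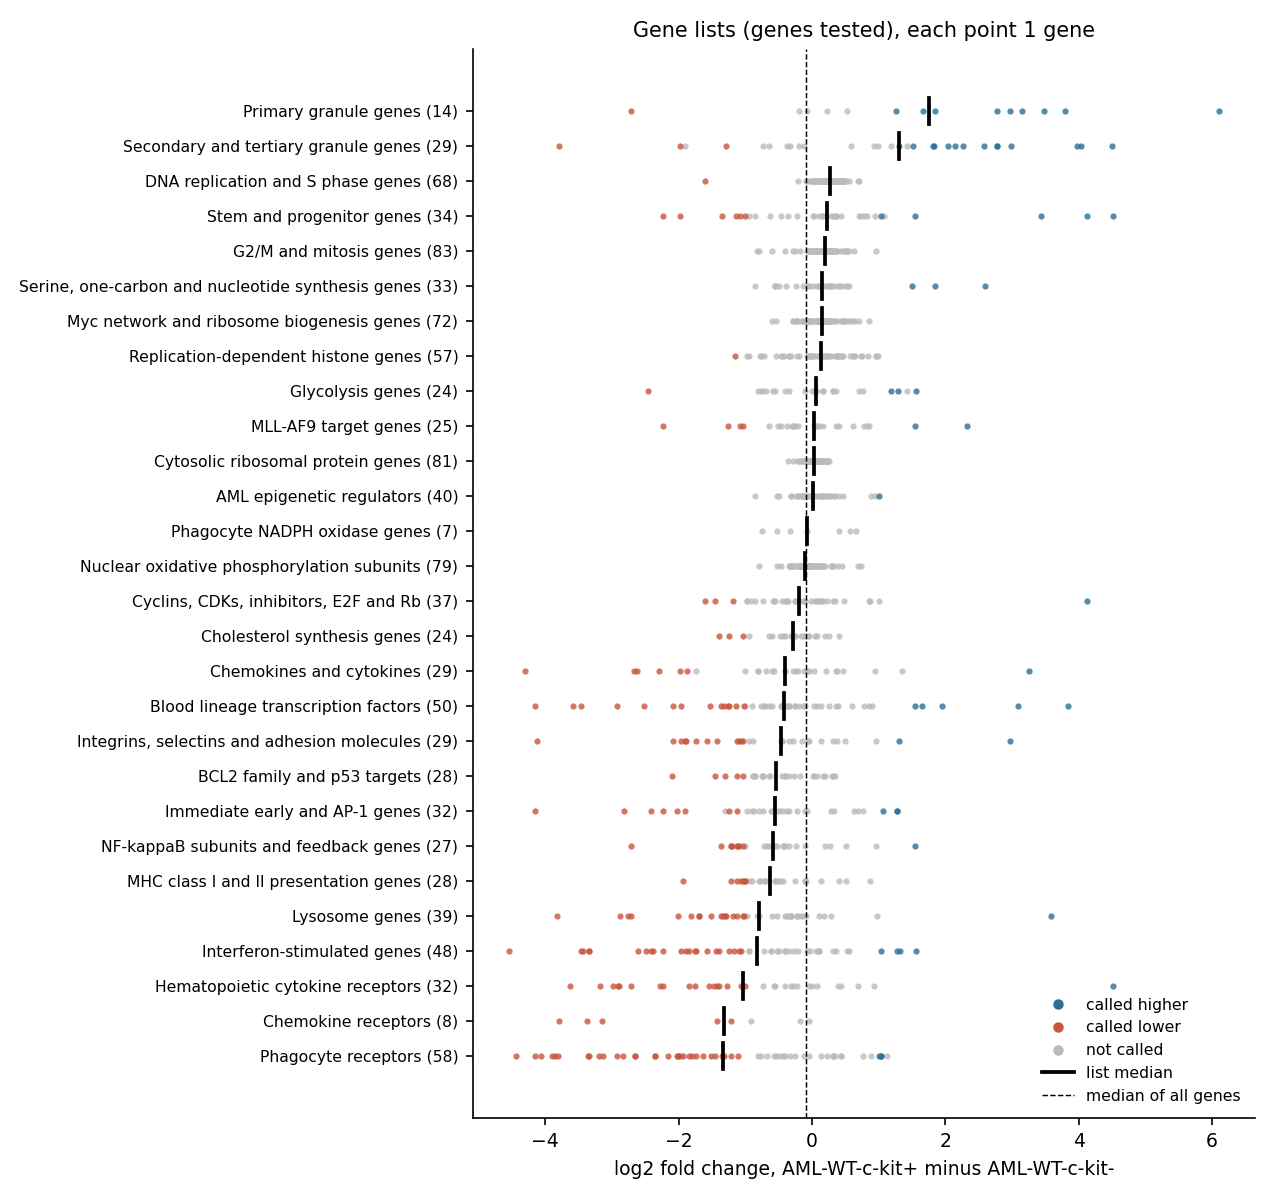
Log2 fold change of each tested member of 28 gene lists, positive toward AML-WT-c-kit+ cells, with the number tested in brackets, a black bar at each list's median and a dashed line at the median of all genes. The granule lists lie to the right, the phagocyte receptor, chemokine receptor, cytokine receptor and interferon lists to the left, and the replication, mitosis and ribosome lists crowd close to the dashed line.

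Of 15 genes picked from those the study names, 13 were tested. Vegfa, Vcam1 and the sort gene Kit were higher in AML-WT-c-kit+ cells, and Irf7, E2f2, Icam1 (−1.04) and Pecam1 (−1.07) were lower. Tgif1, a repressor of TGF-beta signalling, had 22.7, 30.1 and 32.7 TPM and 19.2, 30.9 and 16.0 TPM (log2 fold change −0.40, standard error 0.25, limma adjusted p = 0.252), and Crebl2 (−0.39), Thbs1 (−0.28) and Smad3 (−0.10) were not called either. Dixdc1 and Rab34 did not pass the filter. The study names further genes, among them Irf5 (−3.47) and Irf8 (−2.08), which are given above as lower. It had these libraries among its data, so the counts of the list are not independent evidence.

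The 3 c-kit+ libraries labelled AML-IRF7-/- are set beside these values, with the limit that Irf7 read 12.8, 5.97 and 7.95 TPM there and 5.31, 3.91 and 3.36 TPM in AML-WT-c-kit+ cells. By the study's methods exons 2 and 3 of Irf7 were replaced in these mice, so a level over the whole gene is no check of that label. Kit was 85.5, 70.3 and 85.7 TPM in them. Their levels of the monocytic genes Klf4 (0.21, 0.57 and 0.54 TPM) and Csf1r (29.0, 32.8 and 25.0 TPM) stood under every AML-WT-c-kit- library. Those of Myb (522, 513 and 522 TPM) and Gfi1 (123, 92.2 and 121 TPM) stood above every AML-WT-c-kit- library. Of the granule genes, Mpo (4313, 3252 and 3608 TPM) stood above every AML-WT-c-kit- library as well, while Camp (125, 219 and 116 TPM) stood under all of them, far from the 10573, 6163 and 8922 TPM of AML-WT-c-kit+ cells. All comparisons with c-kit- cells share the same 3 AML-WT-c-kit- libraries, and no test was made on these values.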

How the data were processed

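Bone marrow leukemia cells sorted on c-kit were profiled by RNA-seq of total RNA (TRIzol, Illumina TruSeq RNA v2) per the labels, although the study's text calls the assay a microarray. The authors deposited 1 table of 55536 gene identifiers by 9 libraries in TPM, the unit being read from the values. The aligner, the genome build and the use of strand are not given in the sources used here. TPM keeps no read depth, so depth is unknown and no counting interval can be given. Identifiers were matched to GENCODE M21 (GRCm38), which holds all of them.

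Libraries were grouped by label. Genes that reached 1 TPM in 3 or more of the 6 libraries were analysed as log2(TPM + 1) with limma 3.58.1 (R 4.3.3, trended eBayes, no covariate) and Benjamini-Hochberg adjustment over all genes tested. A call needed an adjusted p under 0.05 and a log2 fold change no smaller in size than 1. Promoter motifs, permutation tests and plots were made with Python 3.11.15, pandas 2.3.3, scipy 1.17.1 and matplotlib 3.10.9, and the fit was tested on simulated data. Named were the 12 largest rises and the 12 largest falls among called genes. For these, only genes without overlap between groups and with a higher group mean of 10 TPM or more were eligible. Also named were 15 genes picked from those the study names, and the members of the gene lists. Of the list members, the examples beyond the most abundant were picked after their values were seen. The comparison and the lists were chosen with earlier results of these data known. Other filters, pseudocounts, scalings, sample sets and a replicate block were tried as alternatives.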

Additional observations from a re-analysis of the deposited data

How the results depend on the processing

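Of 1131 genes named or listed, 249 were called, and none of these reversed under any alternative run. In fits that left out 1 library in turn, 33 lost their call. A pseudocount of 5 TPM lost 51 of them, setting the library medians equal 31, quantile scaling 29 and leaving out the 50 most abundant genes 22, and the cause was not tested. Without depth, the error of genes at low TPM cannot be split into counting and other error.

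A pseudocount of 5 TPM left 307 genes higher and 783 lower, in place of 641 and 1275, since it shrinks the change of genes with low levels. Quantile scaling gave 776 and 1046, the 5 TPM filter 438 and 1014, and a pseudocount of 0.1 TPM 757 and 1477. Leaving out 1 library gave 572 to 726 higher and 1213 to 1299 lower genes.

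The medians of gene lists, taken relative to the median of all genes, are given here where they moved by more than the spread between libraries. With no filter on low values they were 0.04 for stem and progenitor genes (0.31 as reported on this relative scale), 0.05 for MLL-AF9 targets (0.12), −0.64 for cytokine receptors (−0.96), −0.95 for phagocyte receptors (−1.25), −0.26 for chemokine receptors (−1.24), 0.28 for S phase genes (0.35), −0.15 for cell cycle regulators (−0.11), −0.39 for apoptosis genes (−0.46) and 0.03 for epigenetic regulators (0.10). With the 5 TPM filter, which tests fewer genes, they were 0.22, 0.00, −1.18 and −1.94 for stem and progenitor genes, MLL-AF9 targets, cytokine receptors and chemokine receptors, −0.59 for adhesion genes (−0.38) and −0.56 for apoptosis genes. A pseudocount of 0.1 TPM gave −2.63 for chemokine receptors and −0.54 for apoptosis genes, and one of 5 TPM gave 0.22 for stem and progenitor genes, −0.92 for phagocyte receptors, −0.65 for chemokine receptors, −0.46 for interferon-stimulated genes (−0.74) and −0.29 for apoptosis genes. Quantile scaling turned the median of ribosomal protein genes from 0.12 to −0.04, and the cause was not tested.

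With 1 library left out in turn, the relative medians ran from 0.23 to 0.34 for stem and progenitor genes, −1.06 to −0.80 for cytokine receptors, 1.70 to 1.94 for primary granule genes, 1.18 to 2.10 for secondary and tertiary granule genes, −0.85 to −0.34 for adhesion genes, −0.13 to −0.07 for cell cycle regulators, −0.24 to −0.12 for cholesterol genes, −0.42 to −0.04 for chemokine and cytokine genes, −0.98 to −0.24 for immediate early genes, −0.66 to −0.34 for MHC genes and −0.49 to −0.35 for apoptosis genes. For MLL-AF9 targets the range was −0.12 to 0.12, and it was turned by leaving out c-kit- library 1 (−0.06) or c-kit+ library 2 (−0.12).

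The groups share replicate numbers, and a fit with the replicate number as a block called 649 genes higher and 1301 lower. Deviations of same-numbered libraries correlated at −0.059, 0.26 and 0.062, c-kit- library 1 correlated best with c-kit+ library 3, and no label ties the numbers to mice, so the fit without the block was kept.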
